A study of Homo sapiens with 12 samples.

Results

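Experiment 13 was 1 of 3 independent experiments on ML-2, a line grown from a human acute myeloid leukaemia that carries a KMT2A-AFDN gene fusion. Its 4 arrays, out of 12 in all, were chosen by the number at the end of each sample's title and were set against the 8 arrays of experiments 2 and 9. Each experiment gave 1 array for each of 4 treatments. Cells labelled SGI-110 received 2 µM SGI-110 for 24 h and stayed in it with solvent added for the 9 h that followed, 33 h in all. Cells labelled combination received the same 24 h of SGI-110 and then 5 µM ASTX660 for 9 h. ASTX660 cells had solvent first and then 5 µM ASTX660 for 9 h, and control cells had solvent throughout. SGI-110 is a dinucleotide of decitabine and deoxyguanosine that depletes DNA methyltransferases, and ASTX660 is an antagonist of the inhibitor of apoptosis proteins. All 12 cultures were of this 1 line in RPMI medium with fetal calf serum. The labels do not say what the numbers stand for, and they were read here as experiment numbers without order. Passage, cell density, serum lot, RNA extraction day and array day are not stated in the labels, so none of them can be told apart from the experiment number.

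Leukaemia lines of this kind sit between the granulocyte-monocyte progenitor and the monocyte. Progenitors make azurophil granule proteins such as myeloperoxidase, whereas cells further along towards monocytes make adhesion receptors, chemokines, the NADPH oxidase and MHC class II molecules, which present peptides to helper T cells. Separate cultures of 1 line can differ along such programmes, and a treatment study sees that as spread between replicates. Because the split of experiment 13 from the other 2 was itself picked from values measured on these arrays, every difference between experiment 13 and the others is given below as a description, with no test.

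The values are RMA log2 intensities of an Affymetrix expression array, 54675 probe sets on each of the 12 arrays, with array medians between 4.69 and 4.77. A difference of 1 on this scale is a 2-fold difference in intensity. Each gene was read by its brightest probe set, and 12689 of 19775 genes lay above the array median on at least 3 arrays. Within each treatment the experiment 13 array was set against the mean of the experiment 2 and 9 arrays, and the 4 differences were averaged. A gene was said to stand apart when its experiment 13 array lay outside both other arrays, on the same side, in all 4 treatments and the mean difference was at least 1.5-fold. Of the 12689 genes, 52 stood apart as higher in experiment 13 (0.41%) and 20 as lower (0.158%). Past 2-fold there were 13 higher genes (0.102%) and 3 lower ones (0.0236%). Another 4 genes were higher by 1.5-fold on average but not outside both arrays in each treatment. The median difference over all 12689 genes was −0.01. By the same 1.5-fold rule on single pairs of experiments, which share arrays, 48 genes were higher (0.378%) and 32 lower (0.252%) in 13 than in 2, 72 higher (0.567%) and 34 lower (0.268%) in 13 than in 9, and 6 higher (0.0473%) and 8 lower (0.063%) in 2 than in 9. Over the 12689 genes, treatment accounted for 59.1% of the variation between the 12 arrays, the contrast of experiment 13 with the other 2 for 14.6%, the contrast of experiment 2 with 9 for 6.19%, and the remainder was 20.1%.

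**Figure D1:**
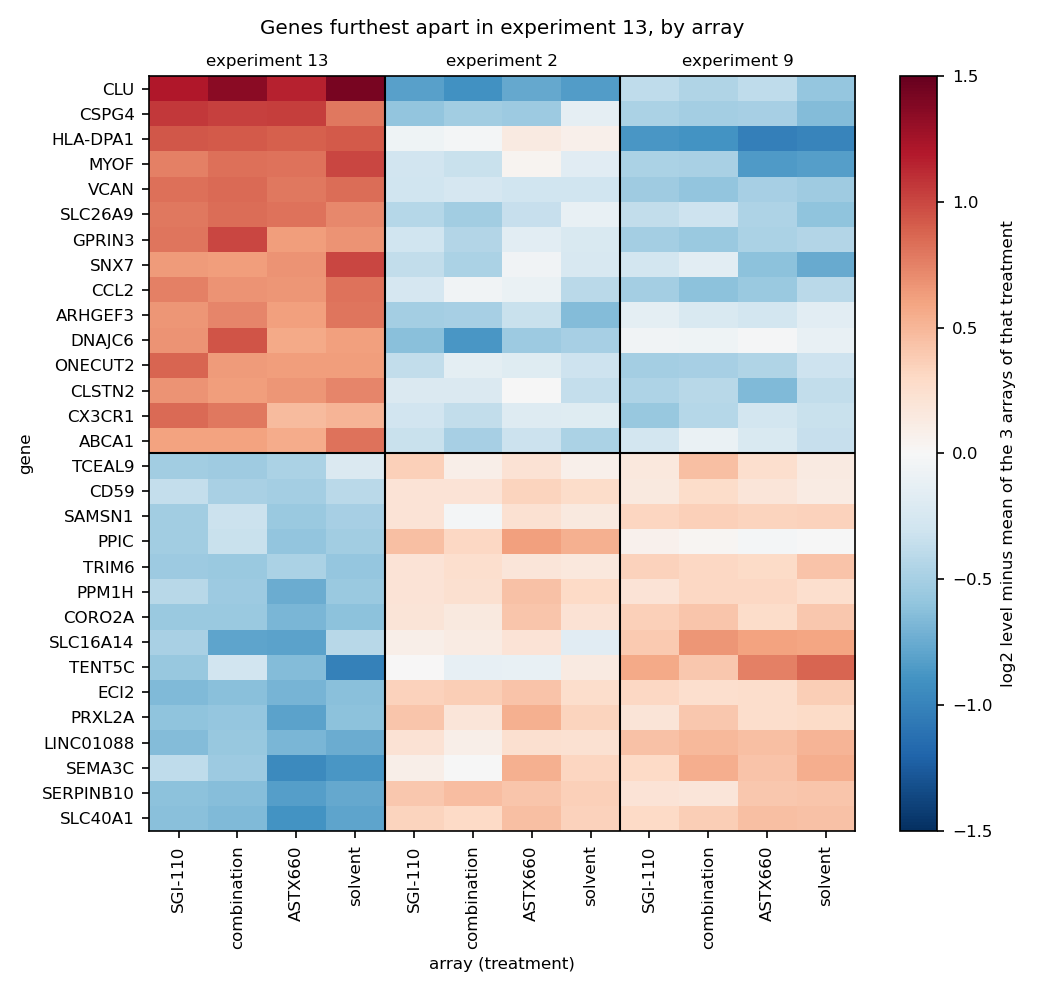
Heat map of the 15 genes furthest above and the 15 furthest below the other experiments in experiment 13; rows are genes, columns are the 12 arrays by experiment and treatment, and colour is the log2 level minus the mean of the 3 arrays of that treatment. The 4 experiment 13 columns lie above both other experiments in the upper rows and below both in the lower rows, and HLA-DPA1 and TENT5C also separate experiment 2 from experiment 9.

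CLU, which encodes the secreted chaperone clusterin, stood furthest above the other experiments. On the experiment 13 arrays CLU read 8.25, 8.34, 7.51 and 7.56 with SGI-110, the combination, ASTX660 and solvent in that order, the order kept for every gene below. Experiment 2 gave 6.23, 6.08, 5.58 and 5.29, and experiment 9 gave 6.66, 6.54, 5.97 and 5.55. The lowest CLU array of experiment 13 was thus above the highest of the other 8, and the mean difference was 1.93 ± 0.19 (SD, n = 4 treatments), a 3.80-fold higher intensity. CLU has 4 probe sets, and with their mean in place of the brightest one the difference was 1.05. In cell cultures measured in bulk, more cells that make a transcript and more of it in each cell cannot be told apart, here or for any gene below.

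CSPG4, a transmembrane chondroitin sulfate proteoglycan that is also known as a surface marker of KMT2A-rearranged leukaemia, read 8.47, 8.40, 7.33 and 6.94 in experiment 13. It read 6.82, 6.85, 5.74 and 6.02 in experiment 2 and 6.93, 6.86, 5.79 and 5.50 in experiment 9. The difference was 1.47 ± 0.19, and the experiment 13 solvent array, the lowest of its 4, lay slightly above every array of the other experiments. VCAN, the matrix proteoglycan versican that monocytes also make, read 8.33, 8.48, 7.01 and 6.95 in experiment 13, against 7.21, 7.38, 5.92 and 5.82 in experiment 2 and 6.97, 7.04, 5.71 and 5.58 in experiment 9. Its difference of 1.24 hardly varied over the 4 treatments (SD 0.03), although the SGI-110 arrays of experiments 2 and 9 read as high as the solvent array of experiment 13. FBLN1, the matrix protein fibulin, was higher by 0.90 ± 0.08, and FAP and MMP2, 2 proteases of the pericellular matrix, by 0.65 ± 0.31 and 0.69 ± 0.39.

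The part of the promoter that precedes the start site is shown for CSPG4, VCAN and SLC40A1, 2 genes high and 1 gene low in experiment 13, because CG dinucleotides are where the DNA methyltransferases that SGI-110 depletes place methyl groups, and SLC40A1 holds many more of them than the other 2. The sequences are RefSeq's for GRCh38.p14, run 5′ to 3′ on the gene's strand and end at the base before the start, with each CG in capitals. CSPG4 is at chr15:75712849-75713098 on the minus strand with 14 CGs, VCAN at chr5:83471494-83471743 on the plus strand with 12, and SLC40A1 at chr2:189580787-189581036 on the minus strand with 38.
CSPG4: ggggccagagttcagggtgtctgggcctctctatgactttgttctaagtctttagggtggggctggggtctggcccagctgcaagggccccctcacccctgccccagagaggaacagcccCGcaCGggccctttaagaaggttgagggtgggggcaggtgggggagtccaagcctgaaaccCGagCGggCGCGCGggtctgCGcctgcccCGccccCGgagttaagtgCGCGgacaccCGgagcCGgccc
VCAN: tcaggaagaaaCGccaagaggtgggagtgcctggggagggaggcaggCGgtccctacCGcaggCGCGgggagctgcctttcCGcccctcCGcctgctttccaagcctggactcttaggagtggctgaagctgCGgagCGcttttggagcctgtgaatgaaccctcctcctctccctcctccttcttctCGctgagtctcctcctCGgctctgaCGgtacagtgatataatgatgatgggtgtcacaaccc
SLC40A1: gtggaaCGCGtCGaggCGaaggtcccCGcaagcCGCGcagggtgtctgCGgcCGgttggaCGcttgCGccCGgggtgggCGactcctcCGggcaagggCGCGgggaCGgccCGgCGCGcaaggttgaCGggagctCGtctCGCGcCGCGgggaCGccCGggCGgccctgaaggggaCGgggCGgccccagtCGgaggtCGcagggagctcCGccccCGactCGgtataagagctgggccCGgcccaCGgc
RefSeq windows of 300 bases around the start, the stretch above and the first transcribed bases, were found for 60 of the 72 genes. The motif CG, which reads the same on both strands, stood in all 60 and in 99.34% of the 10226 tested genes with a window. The median count was 23 CGs over the 41 higher genes, 21 over the 19 lower genes and 26 over all 10226. Windows with fewer than 5 CGs made up 12.2% of the higher, 15.8% of the lower and 7.90% of all genes, 5, 3 and 808 windows. Methylation was not measured on these samples.

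HLA-DPA1, the alpha chain of the MHC class II molecule HLA-DP, showed 3 separate levels. It read 8.50, 8.55, 8.42 and 8.39 in experiment 13, 7.51, 7.60, 7.66 and 7.54 in experiment 2 and 6.70, 6.73, 6.49 and 6.48 in experiment 9. No array of 1 experiment reached into the range of another, whatever the treatment, and the difference of experiment 13 from the mean of the other 2 was 1.37 ± 0.02. The chemokine CCL2, which attracts monocytes, read 11.06, 10.99, 9.01 and 9.17 in experiment 13, 10.05, 10.26, 8.25 and 7.95 in experiment 2 and 9.79, 9.70, 7.80 and 7.96 in experiment 9. Its difference of 1.09 ± 0.11 was smaller than the step between the arrays with and without SGI-110 within each experiment. CX3CR1, the fractalkine receptor of monocytes, was higher by 0.98 ± 0.29, and CD180, a Toll-like receptor homologue of antigen-presenting cells, by 0.70 ± 0.20. Without SGI-110 CX3CR1 read 4.86 and 4.74 in experiment 13, at the array medians, and 3.90 to 4.20 in the other experiments, below them.

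**Figure D2:**
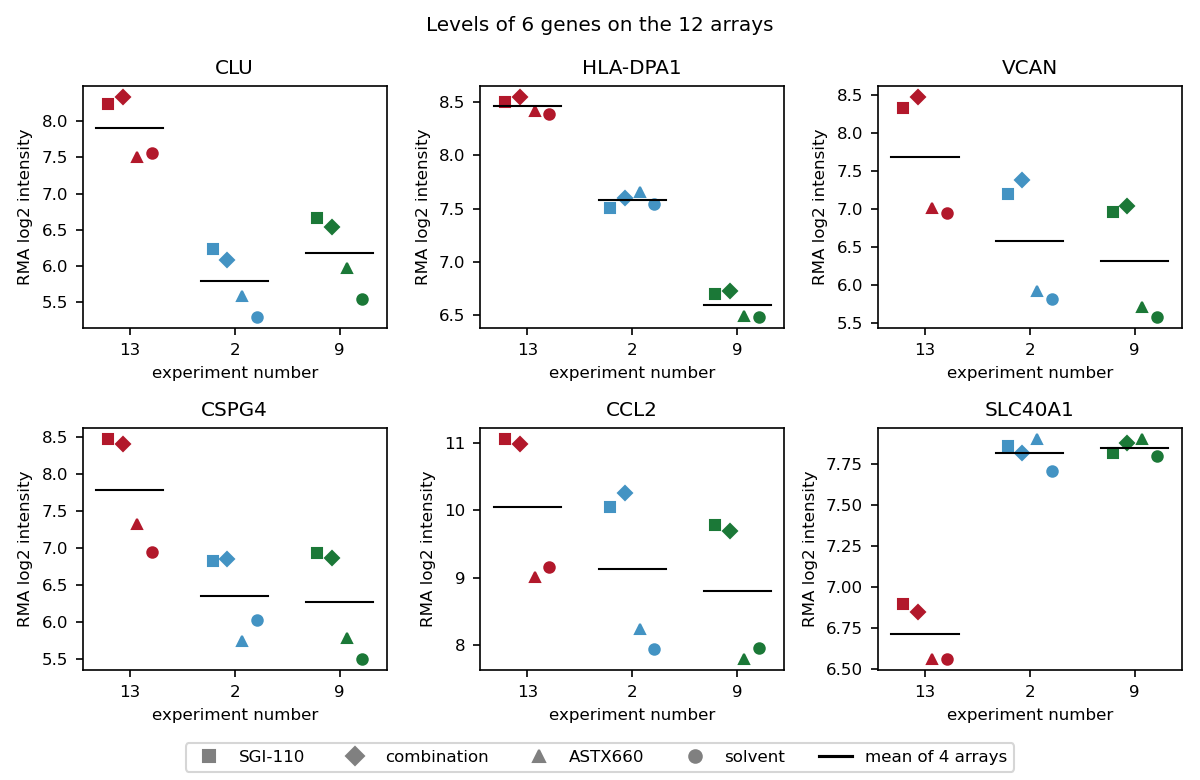
RMA log2 intensity of 6 genes (vertical axes, each with its own range) in experiments 13, 2 and 9 (horizontal axes); symbols are the 4 treatments and black lines the mean of 4 arrays. CLU, HLA-DPA1 and SLC40A1 show no overlap between experiment 13 and the others, while VCAN, CSPG4 and CCL2 are split by SGI-110 within each experiment as well.

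MYOF, a ferlin that takes part in membrane repair, read 7.98, 8.06, 7.32 and 7.46 in experiment 13, 6.93, 6.89, 6.54 and 6.29 in experiment 2 and 6.74, 6.75, 5.65 and 5.64 in experiment 9, a difference of 1.27 ± 0.16. With the mean of its 3 probe sets the MYOF difference was 0.77. The anion transporter SLC26A9 was higher by 1.19 ± 0.07 and ABCA1, which exports cholesterol to apolipoprotein, by 0.97 ± 0.18, or 0.58 with the mean of its 4 probe sets. SNX7, a sorting nexin of endosomes, was higher by 1.11 ± 0.27, and DNAJC6, the auxilin that uncoats clathrin vesicles, by 1.05 ± 0.25. DNAJC6 lay below the array median on 6 of the 8 arrays of experiments 2 and 9. CLSTN2, a calsyntenin of the cadherin superfamily, read 8.76, 8.75, 8.73 and 8.76 in experiment 13, against 7.86, 7.90, 8.05 and 7.68 in experiment 2 and 7.61, 7.71, 7.40 and 7.66 in experiment 9. The CLSTN2 difference of 1.01 ± 0.06 showed no visible step with treatment.

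Among intracellular proteins, ARHGEF3, a guanine nucleotide exchange factor for RhoA, was higher by 1.05 ± 0.13, and GPRIN3, a G protein regulator, by 1.17 ± 0.25. The transcription factor ONECUT2 read 8.07, 7.94, 7.90 and 7.94 in experiment 13, 6.82, 7.14, 7.09 and 7.0 in experiment 2 and 6.68, 6.80, 6.83 and 7.01 in experiment 9, a difference of 1.04 ± 0.18. AGT, the angiotensin precursor, was higher by 0.96 ± 0.07. The remaining higher genes lay between 0.59 and 0.96 and included the guidance receptor ROBO1 at 0.91 ± 0.17, the imprinted inhibitor of cyclin-dependent kinases CDKN1C at 0.72 ± 0.38, the small MAF factor MAFF at 0.65 ± 0.13 and LGALS12, a galectin, at 0.61 ± 0.08.

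SLC40A1 stood furthest below the other experiments. It encodes ferroportin, the exporter of iron from cells, and read 6.89, 6.85, 6.56 and 6.56 in experiment 13. Experiment 2 gave 7.86, 7.82, 7.90 and 7.71 and experiment 9 gave 7.82, 7.88, 7.90 and 7.80. The 8 arrays of experiments 2 and 9 lay within a narrow band, and experiment 13 was below it by 1.12 ± 0.18, a 2.17-fold lower intensity. Only 1 of the 2 bright SLC40A1 probe sets showed this size, the other differing by −0.19, and the mean of both gave −0.66.

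SERPINB10, a serpin of haematopoietic cells also called bomapin, read 6.77, 6.73, 6.42 and 6.36 in experiment 13, 7.78, 7.84, 7.66 and 7.48 in experiment 2 and 7.58, 7.55, 7.65 and 7.54 in experiment 9. Its difference was −1.07 ± 0.15, with no overlap between the groups. ECI2, an enoyl-CoA isomerase of fatty acid breakdown, read 6.58, 6.70, 6.30 and 6.20 in experiment 13, against 7.58, 7.69, 7.44 and 7.09 in experiment 2 and 7.55, 7.57, 7.27 and 7.20 in experiment 9. Its difference of −0.98 ± 0.05 was nearly the same in the 4 treatments. ALDH5A1, the mitochondrial succinate semialdehyde dehydrogenase, was lower by a difference of −0.62 ± 0.17. The long non-coding RNA LINC01088 differed by −1.0 ± 0.10, and PRXL2A, a thioredoxin-fold protein with peroxiredoxin-like activity, by −0.98 ± 0.15.

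The other lower genes were of mixed function. SEMA3C, a secreted semaphorin, differed by −1.03 ± 0.41 at experiment 13 levels of 4.53, 4.51, 4.0 and 3.82, all below the array medians. TENT5C, a poly(A) polymerase that acts as a tumour suppressor in plasma cell myeloma, differed by −0.94 ± 0.45, and SLC16A14, of the monocarboxylate transporter family, by −0.93 ± 0.30. TRIM6, a ubiquitin ligase, read 8.13, 8.29, 8.15 and 7.88 in experiment 13, 8.89, 9.10, 8.81 and 8.62 in experiment 2 and 9.02, 9.17, 8.92 and 8.89 in experiment 9, a difference of −0.81 ± 0.07. CORO2A, a coronin, differed by −0.90 ± 0.09, and the phosphatase PPM1H by −0.85 ± 0.21. PPIC, the cyclophilin C gene, differed by −0.74 ± 0.16, SAMSN1, an adaptor that dampens B-cell signalling, by −0.71 ± 0.15, and CD59, which blocks the complement membrane attack complex, by −0.66 ± 0.11. TCEAL9 also differed by −0.66 ± 0.23, and GXYLT2, PTX3, ZNF91 and TSC22D1 lay between −0.64 and −0.59.

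The spread of the 4 treatment differences around their mean had a median SD of 0.18 over the 72 genes, and TMEM176B had the widest, 0.64. With treatment disregarded, 41 of the 72 genes showed no overlap between the 4 arrays of experiment 13 and the other 8, as did 484 of all 12689 genes (3.81%). The 72 genes were picked for separation on these arrays, so nothing is read from their count. Of the 35 genes with several bright probe sets, 32 had all of them on the same side. The exceptions were FBLN1, CCDC88A and PRXL2A. Another 19 genes rested on a single probe set. When all probe sets of a gene were averaged, 33 of the 72 genes still stood apart. ABCA1, TENT5C, SAMSN1 and CD59 were among those whose averaged difference fell short of 1.5-fold. For GPRIN3, DNAJC6, CX3CR1, SEMA3C, LINC01088, PPM1H and some others the averaged level did not pass the brightness filter, so the rule was not applied to them. Among the genes described above, the mean of all probe sets gave 0.32 for FBLN1, 0.40 for CDKN1C, 0.36 for MAFF, −0.63 for PRXL2A, −0.52 for TENT5C, −0.41 for SAMSN1, −0.37 for ALDH5A1 and −0.28 for TSC22D1. The brightness filter could be passed through experiment 13 alone. In 4 higher genes the mean of experiments 2 and 9 was below the array medians, in 6 lower genes that of experiment 13 was, and without the filter 61 of 19775 genes were higher and 21 lower. Just inside the 1.5-fold limit lay EPB41L3 (0.61), NMNAT2 (0.59), GSAP (0.59), PCDH18 (0.59) and TSC22D1 (−0.59), and just outside it CUX2 (−0.58), DLX5 (0.58), WWC3 (0.58), H1-2 (0.58) and MAGED1 (0.57).

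Gene lists showed where smaller differences lay. Of all 12689 genes, 8.25% were higher in experiment 13 than in both other experiments in all 4 treatments at any size, and 7.29% were lower in that sense. These shares, 1047 and 925 genes, are the background for the counts that follow, from which no test was made. Of 12 MHC class II genes tested, 6 were higher in all 4 treatments and none lower, with a median difference of 0.21. HLA-DRA, the alpha chain of HLA-DR, was higher by 0.37 ± 0.06, CD74, the class II chaperone, by 0.34 ± 0.11, HLA-DMA, a subunit of the peptide exchange factor, by 0.27 ± 0.05, and the class II promoter factor RFX5 by 0.19 ± 0.07. CIITA, the master activator of class II transcription, read 5.30 on average in experiment 13, 5.30 in experiment 2 and 5.24 in experiment 9, a difference of 0.03 ± 0.19. Probe sets of class II genes can also read their close relatives.

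Of 21 myeloid maturation genes, 6 were higher in all 4 treatments and none lower, with a median of 0.13. Besides VCAN these were FCER1G, the common Fc receptor gamma chain, at 0.50 ± 0.05, the NADPH oxidase subunit NCF1 at 0.37 ± 0.11, the protease CTSS at 0.20 ± 0.05, NCF4 at 0.13 ± 0.09 and lysozyme, LYZ, at 0.10 ± 0.02. With the mean of all probe sets 3 myeloid maturation genes were higher. Of 12 granule genes none was higher and 5 were lower, the other 7 had no single direction over the 4 treatments, and the median was −0.10. MPO, myeloperoxidase, averaged 13.18 in experiment 13, 13.44 in experiment 2 and 13.39 in experiment 9, a difference of −0.23 ± 0.03. The defensin DEFA4 differed by −0.25 ± 0.02, MS4A3 by −0.16 ± 0.02, and the proteases CTSG and ELANE by −0.10 ± 0.02 and −0.09 ± 0.02. All of these 5 lie under 1.5-fold and at intensities near the top of the scale, whose highest value was 14.38. IGLL1 had the largest mean difference of the granule list, −0.51, but no single direction over the 4 treatments. It averaged 7.27 in experiment 13, 7.34 in experiment 2 and 8.21 in experiment 9.

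Immediate early genes, which growth factor and stress signals switch on within minutes, had 6 of 15 higher and none lower (median 0.17). DUSP6, the phosphatase induced by ERK signalling, was higher by 0.40 ± 0.10, NR4A2 by 0.34 ± 0.18, KLF2 and KLF6 by 0.29 ± 0.09 and 0.29 ± 0.11, and FOS by 0.27 ± 0.01. The unfolded protein response list had none of 15 higher and 4 lower (median −0.07), led by the calcium-binding chaperone CALR at −0.26 ± 0.10 and followed by DNAJC3, SEL1L and HSPA5. The MYC and ribosome synthesis list had 2 of 19 higher and 6 lower (median −0.05), with CAD, the enzyme that starts pyrimidine synthesis, lowest at −0.17 ± 0.06. In the G2/M and mitosis list 6 of 35 were higher and none lower (median 0.06), among them TOP2A at 0.29 ± 0.07 and PLK1 at 0.25 ± 0.05, and with the mean of all probe sets 10 were higher. The hypoxia and glycolysis list had 6 of 27 higher and 2 lower (median 0.03), with the enolase ENO2 highest at 0.51 ± 0.12. In the NF-kB and cytokine list 4 of 17 were higher and 1 lower, CCL2 first and CCL5 next at 0.33 ± 0.08. The adhesion and surface list had 4 of 22 higher and 3 lower, with CD44, the hyaluronan receptor, at 0.47 ± 0.10 and SELPLG, the P-selectin ligand, at −0.25 ± 0.04. The NRF2 and antioxidant list had 2 of 15 higher and 4 lower, with the mitochondrial dismutase SOD2 at −0.26 ± 0.09.

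The remaining lists were counted in the same way. Interferon-stimulated genes had 2 of 24 higher and 2 lower, USP18 being highest at 0.47 ± 0.17. The p53 targets had 3 of 28 higher and 1 lower, ZMAT3 and GADD45A both at 0.30, and the G1/S and replication list had 1 of 32 higher and 3 lower. The ATF4 list had 4 of 26 higher and 1 lower with CTH at 0.34 ± 0.14, the cholesterol list 2 of 18 higher and 1 lower with PMVK at 0.18 ± 0.04, and fatty acid synthesis 2 of 9 higher with SREBF1 at 0.39 ± 0.14. Of the heat shock proteins 2 of 12 were higher, HSPB1 at 0.37 ± 0.09, of the progenitor and HOXA programme 2 of 10, FLT3 at 0.39 ± 0.10, of the glucocorticoid-induced genes 2 of 6, TSC22D3 at 0.24 ± 0.10, and of the metallothionein and zinc list 1 of 7, SLC30A1 at 0.13 ± 0.07. CCL2, VCAN and HLA-DPA1 were the only genes of all these lists that stood apart at 1.5-fold.

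**Figure D3:**
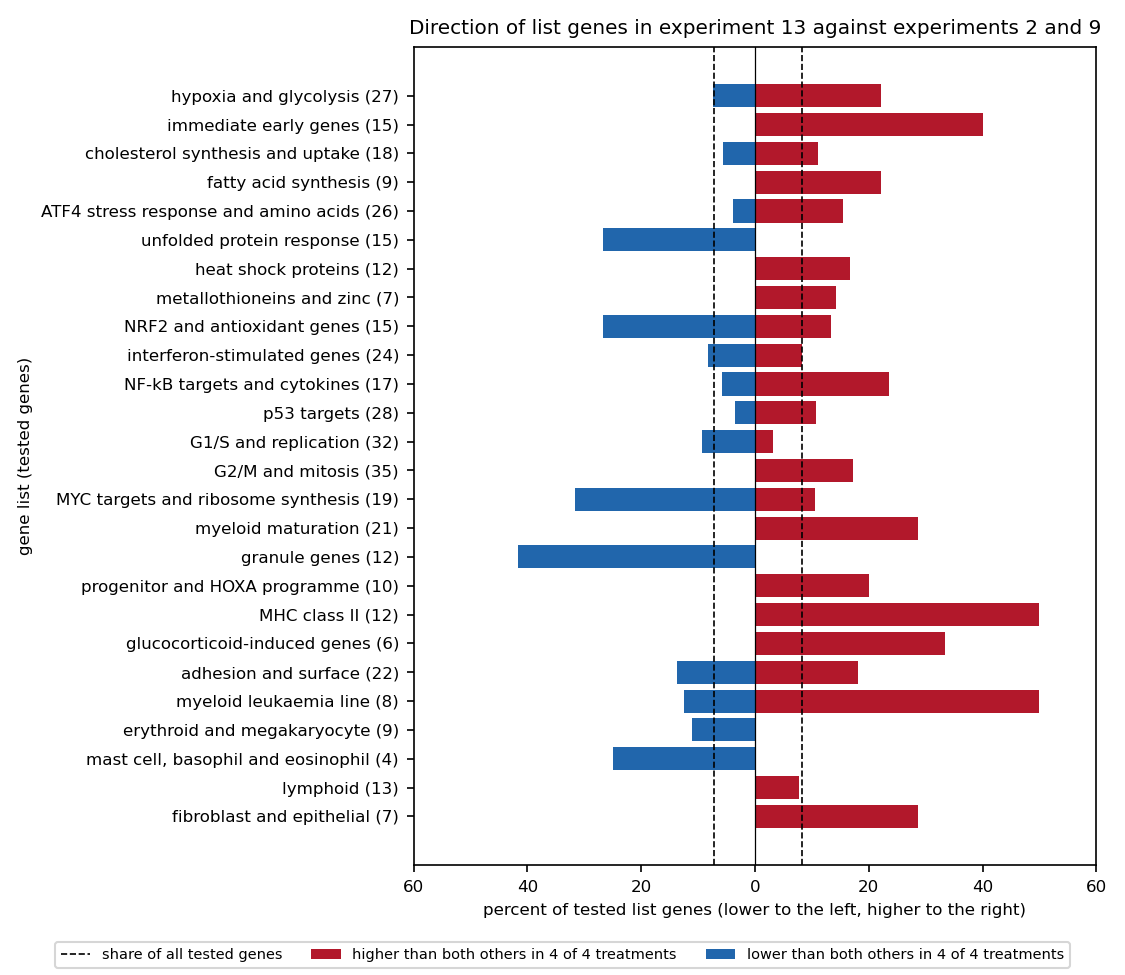
Share of each list's tested genes (horizontal axis, percent; number tested in brackets) that was higher (right) or lower (left) in experiment 13 than in both other experiments in 4 of 4 treatments, with dashed lines at the 8.25% and 7.29% of all tested genes. MHC class II, myeloid maturation and immediate early genes lean to the right and granule genes to the left; the 5 lowest rows are cell type markers.

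Whether the other 2 experiments also differed from each other could be tested, since that contrast was not used to pick experiment 13. The 4 arrays of each experiment served as its replicates. The SE and p of this test therefore measure the spread of arrays and not that between repeated experiments. With limma, 219 of 12689 genes (1.73%) were higher in experiment 2 than in experiment 9 and 81 (0.638%) were lower, at an adjusted p under 0.05 over all genes. Among the 52 genes higher in experiment 13, 7 were higher and 4 lower in experiment 2 than in 9, and among the 20 lower genes 1 was higher and 3 lower. HLA-DPA1 was the clearest, with a difference of 0.98 ± 0.06 (SE, adjusted p = 1.47e-07) between experiments 2 and 9, so that its order was 13, 2, 9. OTULINL, an endoplasmic reticulum protein related to the deubiquitinase OTULIN, read 6.67, 6.67, 6.90 and 6.76 in experiment 13, 6.24, 6.09, 6.74 and 6.45 in experiment 2 and 5.63, 5.28, 5.68 and 5.70 in experiment 9, and differed by 0.81 ± 0.08 between 2 and 9 (adjusted p = 1.42e-05). MYOF (0.47), CCL2 (0.32), VCAN (0.26), LGALS12 (0.26) and GLIPR1 (0.22) were also higher in experiment 2 than in 9. CLU ran the other way between those 2 experiments, lower in 2 by a difference of −0.38 ± 0.08 (adjusted p = 0.0105), as did DNAJC6 (−0.57), FBLN1 (−0.42) and ARHGEF3 (−0.30). Of the genes low in experiment 13, PPIC was higher in 2 than in 9 (0.46), and TENT5C (−0.67), SLC16A14 (−0.50) and LINC01088 (−0.28) were lower. The other 57 of the 72 genes did not pass this test, which does not show that they were equal.

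Myeloid maturation genes were among those higher in experiment 2 than in 9. ITGAM, the CD11b integrin chain of maturing myeloid cells, averaged 6.20 in experiment 2 and 5.22 in experiment 9 (difference 0.98 ± 0.10 SE, adjusted p = 1.23e-05), with 5.96 in experiment 13. CD1D, which presents lipid antigens, was higher by 0.89 and the protein C receptor PROCR by 0.67. Of the 21 myeloid maturation genes 10 were higher in 2 than in 9 and none lower, including MS4A7 (0.47), FCER1G (0.42) and NCF1 (0.41). For the adhesion list that count was 7 of 22, for MHC class II 3 of 12 with HLA-DMA at 0.49 and HLA-DRA at 0.25, and for granule genes 4 higher and 1 lower of 12. IGLL1, a surrogate light chain gene also found in early myeloid cells, led the opposite side, with 7.34 in experiment 2 and 8.21 in experiment 9 (−0.87 ± 0.07, adjusted p = 3.11e-06), and read 7.27 in experiment 13. On the same side were 8 of the 26 ATF4 list genes, such as ALDH1L2 (−0.71), TRIB3 (−0.47), ATF5 (−0.42) and ASNS (−0.38), of which only CEBPB (0.24) was higher in experiment 2. These counts of 2 against 9 depended on single arrays. Against 300 calls with all 12 arrays there were 147 without the solvent array of experiment 2 and 163, 148 and 168 without the solvent, SGI-110 and ASTX660 arrays of experiment 9.

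The response to treatment was then set beside the experiment difference, to which it is orthogonal in this balanced design. Over the 3 experiments, the 6 arrays with SGI-110 against the 6 without it showed 2586 of 12689 genes raised (20.4%) and 2310 lowered (18.2%) at an adjusted p under 0.05 in limma. Of the 52 genes higher in experiment 13, SGI-110 raised 38 and lowered 2, OTULINL and BASP1, and 12 did not pass. Their median change was 0.61, against −0.0046 over all genes. Of the 20 genes lower in experiment 13, SGI-110 raised 12 and lowered 2, SAMSN1 and SLC16A14, with a median change of 0.19. The filter asks for brightness on only 3 arrays, and with a filter that asks for it on all 12 arrays 40 of the 52 were tested and 27 passed as raised. With the mean of all probe sets 39 were tested and 26 passed. As a share of those tested this was 67.5% and 66.7%, beside 73.1% for 38 of 52. Over all genes tested in the same 3 settings, in that order, SGI-110 raised 21.4%, 20.2% and 20.4%.

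CCL2 had the largest SGI-110 change of the 72 genes, 1.95 ± 0.06 (SE, adjusted p = 2.43e-14), and the size was alike within experiments 13 (1.93), 2 (2.05) and 9 (1.86). NAV3, a microtubule-binding neuron navigator protein, rose by 1.73 ± 0.08, MYO10, an unconventional myosin of filopodia, by 1.56 ± 0.12, GLIPR1 by 1.43 ± 0.04, and CDKN1C and VCAN both by 1.40. CLU rose by 0.77 ± 0.06 with SGI-110 (adjusted p = 2.24e-08), less than its difference between experiments. HLA-DPA1 (0.10), CLSTN2 (0.05), ONECUT2 (−0.05), ROBO1 (0.01) and SLC40A1 (0.12) did not pass the SGI-110 test. PTX3, a secreted pentraxin that was low in experiment 13, rose by 1.36 ± 0.10, and PPIC, likewise low there, by 1.05 ± 0.06. Without SGI-110, MYO10 read 3.97 to 4.50 and PTX3 3.19 to 4.49, below the array medians on every array. SCG2, a higher gene that SGI-110 raised by 0.66, read 3.88 to 4.54 without it, also below the array medians. MYO10, PTX3 and SCG2 passed the brightness filter only through arrays with SGI-110, so that filter favoured a rise in them. CX3CR1, DNAJC6 and FRMD4A, likewise higher and raised, were bright on too few arrays without SGI-110 to pass on those alone. The count of higher genes raised by SGI-110 thus holds members whose rise the filter favoured.

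**Figure D4:**
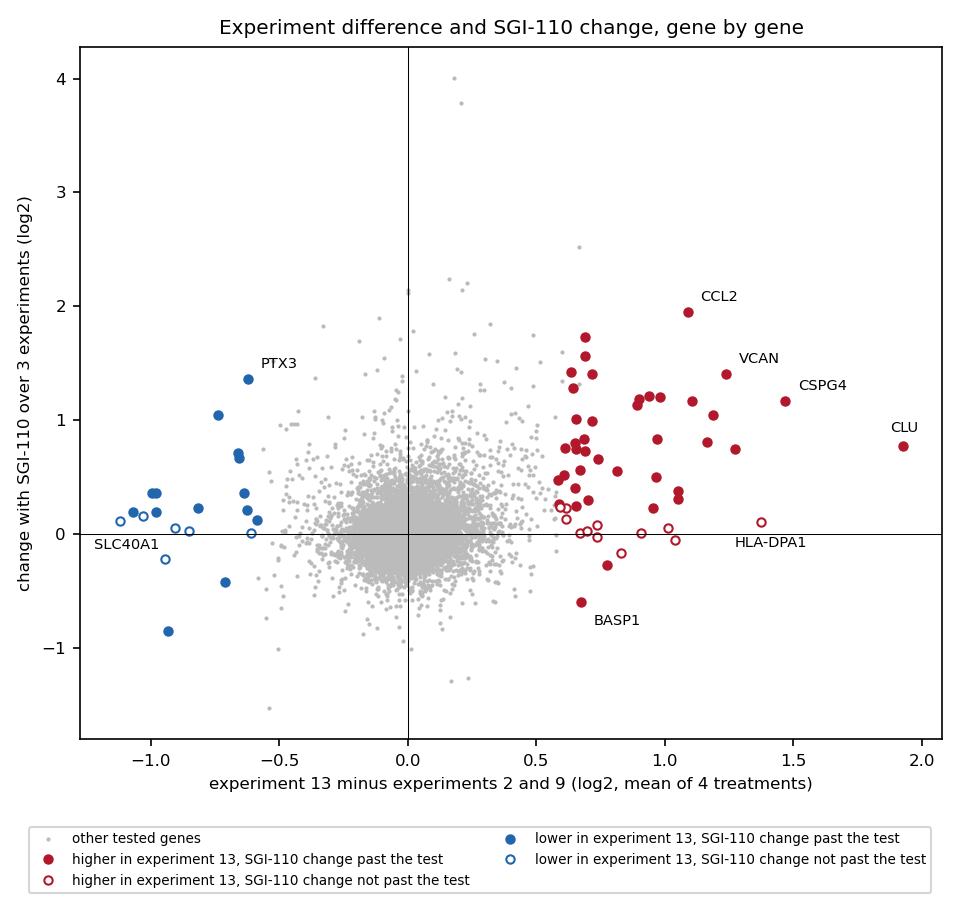
Change with SGI-110 over the 3 experiments (vertical axis, log2) against the difference of experiment 13 from experiments 2 and 9 (horizontal axis, log2) for the 12689 tested genes, grey, with the 52 higher genes in red and the 20 lower in blue; filled points passed the SGI-110 test. Of the 52 red points 38 passed as raised, beside 20.4% of all tested genes, and HLA-DPA1 and SLC40A1 lie near 0 on the vertical axis.

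ASTX660 changed none of the 72 genes at an adjusted p under 0.05 in limma, the smallest adjusted p among them being 0.102. Over all 12689 genes it raised 22 (0.173%) and lowered none, and 1699 had an unadjusted p under 0.05, where chance gives 634.

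Whether cells of experiment 13 responded to the drugs differently was tested as an interaction in limma. The arrays of 1 experiment served as replicates, so the SE and p measure the spread of arrays and not that between independent experiments. For SGI-110, 2 of 12689 genes passed (0.0158%), both with a larger rise in experiment 13. An unadjusted p under 0.05 was found for 357 genes, fewer than the 634 that chance gives. TMEM176B, a membrane protein of myeloid cells, read 6.87, 6.88, 5.03 and 4.99 in experiment 13, 5.41, 5.51, 4.87 and 4.80 in experiment 2 and 5.39, 5.42, 4.54 and 4.46 in experiment 9. SGI-110 raised it by 1.87 in experiment 13, 0.62 in experiment 2 and 0.91 in experiment 9, and the difference in response was 1.10 ± 0.14 (SE, adjusted p = 0.0126). TMEM176B was thus close to the array medians without SGI-110 in all 3 experiments, and its place among the 72 genes came from the arrays with SGI-110. The other gene was TKTL1, a transketolase-like gene and not one of the 72. It read 8.59, 8.40, 3.64 and 3.86 in experiment 13, 7.73, 7.88, 3.72 and 4.55 in experiment 2 and 7.75, 7.67, 4.05 and 4.19 in experiment 9. Its rise with SGI-110 was 4.75 in experiment 13, 3.66 in experiment 2 and 3.59 in experiment 9, a difference in response of 1.12 ± 0.17 (adjusted p = 0.0474), with levels below the array medians on all arrays without SGI-110. Both calls depended on single arrays, while the size of the difference moved less. Leaving out each of the 12 arrays gave a difference in response of 1.05 to 1.15 for TMEM176B and 0.99 to 1.254 for TKTL1. Without any 1 of 6 arrays, the 4 of experiment 13 and the solvent and SGI-110 arrays of experiment 2, the adjusted p of TMEM176B was 0.0586 to 0.523. For TKTL1 the same arrays and the SGI-110 array of experiment 9 gave 0.0762 to 0.928. With quantile normalization neither passed, at an adjusted p of 0.0617 for TMEM176B and 0.125 for TKTL1, with differences in response of 1.07 and 1.09. With the mean of all probe sets the difference for TKTL1 was smaller, 0.80 (limma, adjusted p = 0.394), and TMEM176B was not tested. For ASTX660 no gene passed the interaction test in limma (0%), with or without robust variances. An unadjusted p under 0.05 was found for 324 genes, again fewer than the 634 that chance gives.

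One pattern crossed the gene lists and was noticed only after the values had been seen. Genes of chromosome 1 as a whole read slightly higher in experiment 13. The median difference of its 1270 tested genes was 0.08, with 75.2% above 0, whereas the medians of the other chromosomes lay between −0.04 on chromosome 2 and 0.01 on chromosome 18. Of the 1270 genes, 351 (27.6%) were higher in all 4 treatments and 28 (2.20%) were lower, against 8.25% and 7.29% of all tested genes. The shift ran the length of the chromosome. In blocks of 50 neighbouring tested genes, the 26 block medians of chromosome 1 lay between 0.03 and 0.16, the 230 blocks elsewhere between −0.06 and 0.05, and 23 chromosome 1 blocks were above every block of any other chromosome. For a view by array, each gene was first set against its mean over the arrays of the same treatment, experiment 13 included. On that scale the level of chromosome 1 relative to the other chromosomes was 0.07, 0.07, 0.06 and 0.07 on the 4 experiment 13 arrays. It was −0.04, −0.04, −0.04 and −0.03 in experiment 2 and −0.03 on each array of experiment 9. Negative values here mean below that shared treatment mean, and not a chromosome 1 expressed below the other chromosomes. Between experiments 2 and 9 the chromosome 1 median differed by less than 0.01. Of the 72 genes, 9 lie on chromosome 1, beside 1270 of all 12689 tested genes, and nothing is read from that count. They are SLC26A9, SNX7, DNAJC6, AGT, SYT11, CCDC18, MYBPH and NMNAT2, higher, and TENT5C, lower. Each differed by at least 1.5-fold, far more than the chromosome's median of 0.08. The counts of the gene lists were set against all tested genes and not split by chromosome, so the part of this shift in them was not tested. DNA copy number was not measured on these samples, and what underlies the shift was not tested.

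**Figure D5:**
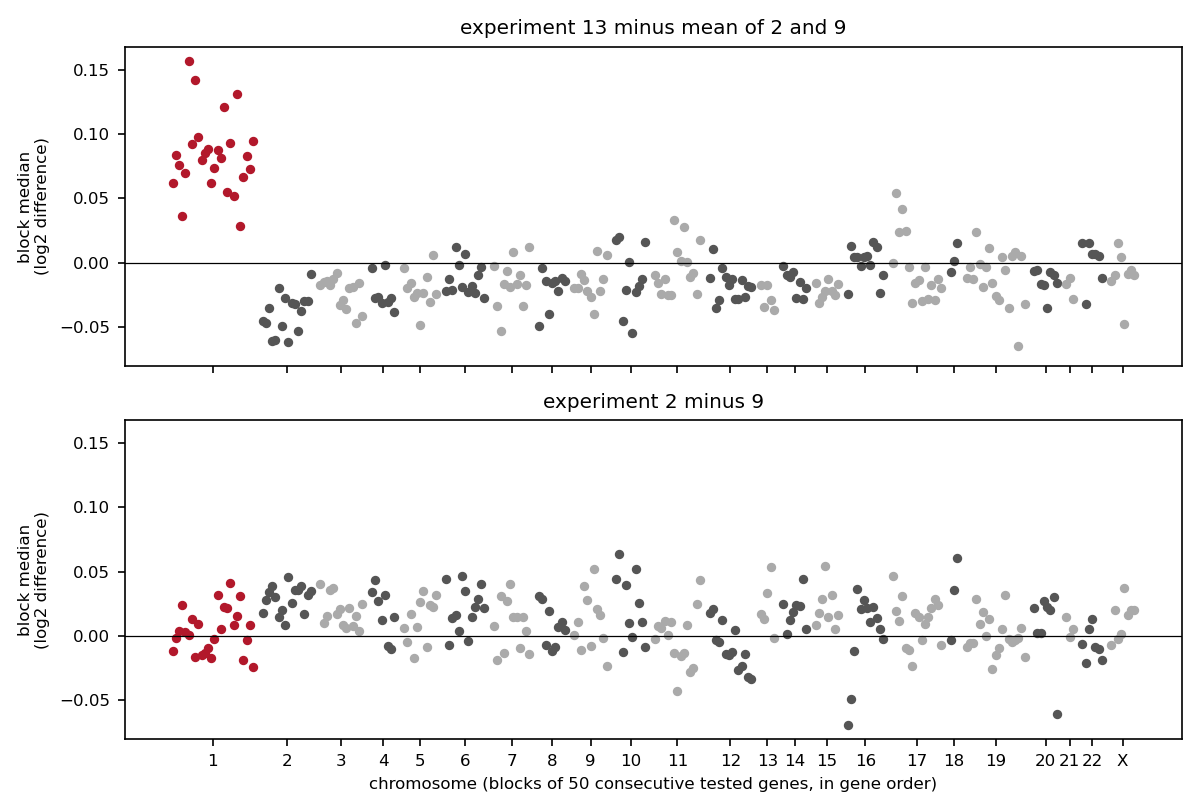
Median log2 difference of blocks of 50 neighbouring tested genes (vertical axis) along the chromosomes (horizontal axis), for experiment 13 minus the mean of 2 and 9 above and for experiment 2 minus 9 below; each point is a block and chromosome 1 is red. The red blocks lie between 0.03 and 0.16 in the upper panel and between −0.02 and 0.04 in the lower.

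The array's own controls were compared in the same way. The spiked hybridisation controls read 9.94 to 10.03 on the experiment 13 arrays, and 10.02 to 10.51 on the other 8, so that experiment 13 lay at the low end. Poly-A controls read 6.66 to 6.75 in experiment 13 and 6.25 to 6.78 in the others. The 3′ minus 5′ level of GAPDH lay between −0.04 and −0.02 in experiment 13 and between −0.06 and 0.02 in the others, and that of ACTB between −0.08 and −0.00 in experiment 13 and between −0.10 and 0.08 in the others. The part of the hybridisation controls in the gene differences was not tested. MPO, LYZ and CEBPA, the brightest linked markers of the line, were bright in all 3 experiments. MPO and LYZ averaged over 13 in each, and CEBPA averaged 10.80 in experiment 13, 10.84 in experiment 2 and 10.86 in experiment 9. ANPEP, CD34, KIT, CD14 and MEIS1, also on that list, did not pass the brightness filter. CD33, HOXA9 and HOXA10 had no usable probe set. The mean level over 13 linked myeloid markers was 7.18 to 7.43 in experiment 13 and 7.08 to 7.43 in the others. Of the 8 that passed the filter, FLT3 (0.39), PTPRC (0.32), SPI1 (0.21) and LYZ (0.10) were higher in experiment 13 in all 4 treatments and MPO (−0.23) was lower, with a median of 0.15. Of 15 erythroid and megakaryocyte markers the mean was 4.98 to 5.09 in experiment 13 and 4.99 to 5.18 in the others. Over 10 mast cell, basophil and eosinophil markers it was 4.93 to 5.10 in experiment 13 and 4.88 to 5.22 in the others, and over 19 lymphoid markers 5.01 to 5.11 in experiment 13 and 4.91 to 5.18 in the others. Over 15 fibroblast and epithelial markers it was 4.53 to 4.66 in experiment 13 and 4.39 to 4.61 in the others. In that last list KRT8 and KRT18, keratins, were higher in experiment 13 by 0.43 ± 0.28 and 0.40 ± 0.11, and the other 5 of the 7 that passed the filter had no single direction. COL1A1, the brightest of the list, averaged 7.67 in experiment 13, 7.58 in experiment 2 and 7.69 in experiment 9, and FN1 averaged 5.59, 5.54 and 5.60. EPCAM, CDH1, LUM, COL3A1 and 4 more of the 15 did not pass the filter. The part of the KRT8 and KRT18 differences in the other results was not tested.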

How the data were processed

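RNA of 12 ML-2 cultures was labelled from 100 ng per array with a 3′ IVT PLUS kit, per the labels' protocols. The deposited values are log2 intensities made by the authors with RMA in the affy package, with no version given, per the submitters' processing notes. No column was left unused. Of 54675 probe sets, 42898 were listed in the platform annotation, 11777 were not, and 1801 that name several genes were set aside. Of the 41091 used, 41037 matched the RefSeq gene table by identifier. Genes without such a probe set were not analysed here. Depth has no meaning for arrays, and the number of arrays, 4 against 8, limits the precision.

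The difference of experiment 13 was described as stated above, with the SD over the 4 treatments and no p. Tests on the other contrasts used limma 3.58.1 in R 4.3.3, with lmFit and eBayes with an intensity trend, on all 12 arrays with treatment and experiment number as factors and Benjamini-Hochberg adjustment over 12689 genes. Drug responses by experiment added an experiment 13 by SGI-110 or ASTX660 term. Tested on simulated data of 12689 genes, in which 200 genes differed by 1 on the log2 scale, the 2 against 9 test recovered 99.5% of them and either drug interaction 94.0%. At a difference of 0.5 these were 91.0% for 2 against 9, 43.5% for the SGI-110 interaction and 45.5% for the ASTX660 interaction. Wrong calls at a difference of 1 were 10 for 2 against 9, 8 for the SGI-110 interaction and 7 for the ASTX660 interaction. The simulated noise was independent between arrays, with no experiment effect beyond the one added, unlike the measured arrays. The text names the 15 highest and 15 lowest of the genes that stand apart and, for most lists, the genes with the largest differences. It also names the genes next to the limit, up to 10 genes each way past each test, and other members as examples. The members, the gene lists and the contrast were chosen with earlier results of these data known. Figures were drawn with matplotlib 3.10.9.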

Additional observations from a re-analysis of the deposited data

Results flagged for a closer look

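In 4 of the 30 genes named for the experiment 13 difference, 1 treatment stood far from the other 3; chance gives such a reading in about 1 of 20 genes. The gap to the nearest treatment as a share of the whole range was 0.872 for CSPG4 and 0.882 for SNX7, with solvent the odd treatment in both, 0.930 for ONECUT2 with SGI-110 and 0.835 for PRXL2A with ASTX660. All 4 genes stood apart in each treatment nonetheless. The change with SGI-110 was larger in experiment 13 than in experiments 2 and 9 by 1.10 on the log2 scale for TMEM176B (limma, adjusted p = 0.0126) and by 1.12 for TKTL1 (adjusted p = 0.0474). In both genes the combination array and the SGI-110 array of experiment 13 were each above the 4 corresponding arrays of the other experiments.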

How the results depend on the processing

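Settings were changed singly, and for the 30 named genes 509 of 556 alternative differences moved by less than the spread over treatments, 47 moved by more and 0 changed sign. With all 12 arrays 52 genes were higher, 20 lower and 72 in all. The mean of all probe sets gave 26, 11 and 37. Every probe set on its own gave 112 higher and 141 in all, which are counts of probe sets and not of genes. A limit of 25% gave 212, 123 and 335, and a 2-fold limit 13, 3 and 16. Brightness on all 12 arrays left 13 lower genes. Experiment 2 alone as the comparison gave 32 lower genes and experiment 9 alone 34. Leaving out 1 array gave 49 to 59 higher, 17 to 23 lower and 68 to 82 in all, with 61 to 71 of the 72 genes kept. The 300 calls of experiment 2 against 9 became 184 with median centring, 189 with the mean of probe sets, 110 without the intensity trend, and 147 to 428 without 1 array; 4 arrays moved them by over 1.5 times, the solvent array of experiment 2 (147), and the solvent (163), SGI-110 (148) and ASTX660 (168) arrays of experiment 9. The 2 SGI-110 interaction calls became 0 with quantile normalization, with brightness on all 12 arrays and with the mean of probe sets. They became 4 without the brightness filter, 1 with every probe set, 1 without the trend and 0 to 5 without 1 array. With brightness on all 12 arrays neither TMEM176B nor TKTL1 was tested, and with the mean of probe sets TMEM176B was not, so those settings cannot show whether their calls hold. TMEM176B ranged over adjusted p of 0.00337 to 0.523 and TKTL1 over 0.00296 to 0.928 without 1 array. The ASTX660 interaction gave 0 calls in each setting that left out an array. The 4896 genes called with SGI-110 became 8242 probe sets when every probe set was tested, and 4239 to 5223 genes without 1 array. The 22 ASTX660 calls became 10 with the mean of probe sets, 6 without the trend and 14 to 30 without 1 array. The count of 38 higher genes raised by SGI-110 ranged over 36 to 40 without 1 array, beside 17.4% to 23.6% of all tested genes. The chromosome 1 shift, added after the values were seen as the chromosome's median less that of the others, was 0.0945, fell to 0.0596 without the brightness filter, where dim genes enter, and was 0.0931 to 0.102 without 1 array. The cause of these moves was not tested.

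The experiment number was a factor of the fits because it is the comparison itself. With no replicate block in limma, the SGI-110 interaction gave 0 calls (adjusted p = 0.0771 for both genes) and the ASTX660 interaction 0. The SGI-110 change then gave 3796 calls, raised and lowered together, and the ASTX660 change 0. Of the 52 higher genes 26 were raised by SGI-110. The share of all genes raised was not taken in that fit, so nothing is read from this count. As a check of pairing, deviations from the treatment means correlated at 0.48 to 0.57 among the arrays of experiment 13, 0.06 to 0.38 in experiment 2 and 0.16 to 0.48 in experiment 9, and all 12 arrays correlated best with their own number, a hint from the data and not from the labels. The number of arrays and, for dim genes, the signal over background limit what can be seen.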
